A study of Mus musculus with 16 samples.

Results

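The Spi1 locus held 25 of the 296215 accessible regions found when the peaks of 16 ATAC-seq libraries of mouse hematopoietic stem and progenitor cells (HSPCs) were merged wherever they shared 1 bp. The 25 regions were all those between 30 kb upstream of the Spi1 start and 10 kb downstream of the gene end in the mm10 GENCODE annotation, chr2:91066096-91125756. The start was taken as that of the principal transcript, Spi1-201, at chr2:91096096 on the plus strand. The gene record itself begins 13706 bp further upstream, because Spi1-204 and Spi1-202 begin there, inside the upstream element described below. ATAC-seq marks DNA that a transposase can reach, and a peak is a place where its cuts pile up above the local background.

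The study asked what loss of the acetyltransferase p300, encoded by Ep300, does in HSPCs that lack the DNA demethylase Tet2. There were 4 libraries of each of 4 genotypes. WT mice were Ep300 fl/fl, P300KO mice were Mx1-Cre;Ep300 fl/fl, TET2KO mice were Ep300 fl/fl;Tet2-/- and P300KO_TET2KO mice were Mx1-Cre;Ep300 fl/fl;Tet2-/-. All mice were on a C57BL/6 background and all 4 genotypes received poly(I:C), which switches on the interferon-responsive Mx1-Cre. Loss of p300 was thus induced and not limited to HSPCs, since the Cre also acts in other interferon-responsive cells, whereas Tet2 was absent from the germline on. Each library was made from 50000 cells pooled from 2 mice of a genotype. The study used males and females, and the sex of each pool was not given in the sources used here. Poly(I:C) was begun at 6 to 8 weeks of age, with cells taken 2 weeks later unless another time was named, and none was named for these libraries. Peaks do not show whether the Ep300 or Tet2 exons were deleted, so the genotype labels were not checked.

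Spi1 encodes PU.1, an Ets-family transcription factor without which neither the myeloid nor the lymphoid lineages form. Its dose matters: high PU.1 drives macrophage and granulocyte genes, lower PU.1 is used in B cells, and strongly lowered PU.1 in stem cells gives myeloid leukemia in mice. Much of its expression in HSPCs depends on an upstream regulatory element near 14 kb before the start, which is bound by Runx1 and by PU.1 itself, so that the gene feeds back on its own enhancer.

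The reference sequences (RefSeq, GRCm38.p6, the mm10 build) of 2 upstream regions are shown because the results below turn on them: the upstream element, and the region whose rank differed most between replicate pairs among those in at least 12 libraries. Each run is 300 bases, 150 before the median summit of the region and the rest from it on. Capitals mark the strings GGAAGT (Ets factors and PU.1), TGTGGT or TGCGGT (Runx), GATAA (Gata), TTGCNNAA (Cebp) and TGAGTCA or TGACTCA (AP-1), each searched on both strands.
Upstream element, summit 13.03 kb upstream, chr2:91082912-91083211, plus strand: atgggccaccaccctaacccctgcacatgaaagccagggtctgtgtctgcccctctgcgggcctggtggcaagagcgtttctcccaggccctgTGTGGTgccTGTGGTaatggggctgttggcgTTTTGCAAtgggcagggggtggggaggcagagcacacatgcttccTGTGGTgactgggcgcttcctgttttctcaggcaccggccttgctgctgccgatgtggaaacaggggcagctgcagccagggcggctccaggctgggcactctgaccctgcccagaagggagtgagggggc
Upstream intron region, summit 9.58 kb upstream, chr2:91086368-91086667, plus strand: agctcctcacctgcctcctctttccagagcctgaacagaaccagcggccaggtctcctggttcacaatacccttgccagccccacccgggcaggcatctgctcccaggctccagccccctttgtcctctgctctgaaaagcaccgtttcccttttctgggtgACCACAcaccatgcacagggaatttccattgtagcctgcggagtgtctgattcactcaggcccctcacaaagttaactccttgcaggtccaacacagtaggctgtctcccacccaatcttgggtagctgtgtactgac

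The upstream element held 3 TGTGGT strings, starting 57 and 48 bp before and 19 bp after the summit, and 1 Cebp string, TTTTGCAA, starting 26 bp before it. No capitals overlapped between strings there. A Runx string lay in 31.3% of the 296215 regions and a Cebp string in 11.8% of them, measured in windows of the same length. Among the 19206 regions that had a peak in all 16 libraries and lay over 3 kb from every annotated start, the shares were 40.5% and 13.8%. An Ets string lay in 29.4% of all regions and a Gata string also in 29.4%, and neither was found in these windows. Only the exact strings were searched. The shorter run cttcc, which is ggaag on the other strand, does lie in the window of the upstream element. The upstream intron region held a single Runx string, ACCACA, 12 bp after the summit. AP-1 strings lay in 7.31% of all regions and in neither of these windows. A match is a run of letters, not a shown binding site. Spi1 was not among the promoter sequences used here, and the window around the start is not printed.

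Of the 25 regions, 8 lay upstream of the start, 9 between the start and the gene end, and 8 beyond the gene end. There were 6 regions with a peak in 16 of 16 libraries, which is 24% of the locus against 13.3% of all merged regions. A further 2 regions had a peak in 15 libraries. The 9 regions with a peak in 1 library made up 36% of the locus against 45.6% of all regions, and 7 of them lay beyond the gene end. The remaining 8 had a peak in 2 to 11 libraries. The same window held a median of 13 regions over the 21911 protein-coding genes, and 83.9% of genes had fewer than Spi1. The median number present in all 16 libraries was 2, and 87.0% of genes had fewer than the 6 of Spi1.

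**Figure D1:**
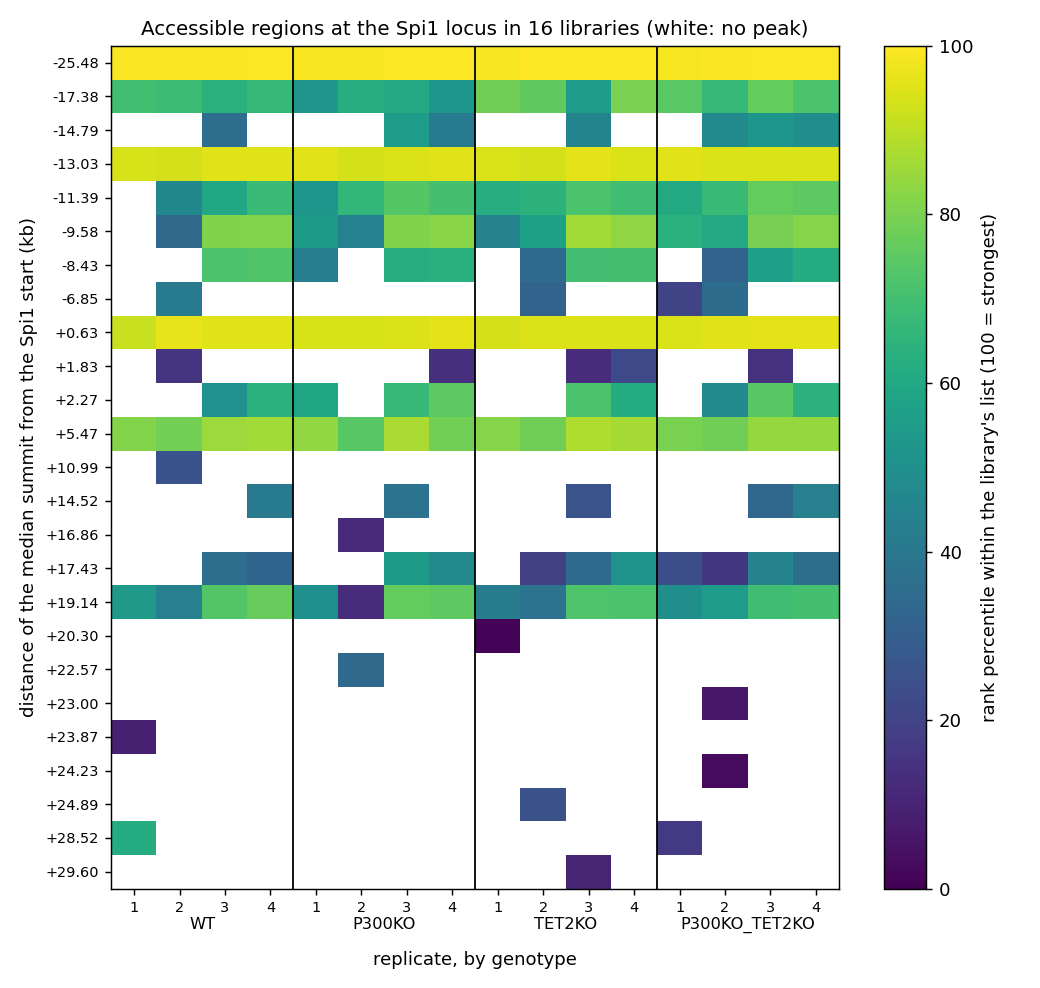
Rank percentile of each of the 25 regions (rows, by distance of the median summit from the Spi1 start in kb) in each of the 16 libraries (columns, by genotype and replicate); white marks a library with no peak and 100 the strongest peak of a list. Bright rows at -25.48, -13.03 and +0.63 kb run through every library, and several rows are filled mainly in replicates 3 and 4.

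Peaks carry no read counts, so a region was described by its rank percentile, the percent of the peaks in the same library with a lower −log10 p. A value near 100 therefore means one of the strongest peaks of that library, and it says nothing about signal between libraries. Because the lists come from bulk cells, a change in the share of a cell type and a change in accessibility per cell cannot be told apart. Depth was unknown. The lists of replicates 1 and 2, whose labels also name a merged peak list, held 86039 to 110055 peaks, and those of replicates 3 and 4 held 130610 to 137335, so the absence of a peak means that none was detected.

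The upstream element had a rank percentile above 93 in every library. It spanned chr2:91082192-91083667, 1476 bp, with its median summit 13.03 kb upstream, in an intron of Spi1-204, and its far end over the first exons of Spi1-204 and Spi1-202. Its rank percentiles were 94.1, 93.7, 95.6 and 95.0 in WT replicates 1 to 4. They were 95.7, 93.5, 94.7 and 95.6 in P300KO. They were 94.4, 93.4, 95.8 and 94.4 in TET2KO, and 95.5, 94.6, 94.4 and 94.5 in P300KO_TET2KO. All 4 genotypes overlapped within about the same narrow band. In places from the top of the list these were 4367 to 7403. The median over libraries, 94.6, was above that of 97.0% of the 19206 distal regions present in all libraries, but the element was not itself in that class, since its summit lay 654 bp from the nearest annotated start, that of the extra Spi1 transcripts.

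The summits of the element fell into 3 groups. The main one was called in 16 of 16 libraries, 13003 to 13069 bp upstream, a range of 66 bp, with fold enrichments over background of 5.43 to 10.4. A distal one, 13730 to 13801 bp upstream and next to the start of Spi1-204, was called in 15 libraries at 1.55-fold to 2.41-fold and was not detected in WT replicate 1. A proximal one, 12529 to 12758 bp upstream, was called in 11 libraries at 1.59-fold to 2.29-fold, in 3 of 8 libraries of replicates 1 and 2 and in 8 of 8 of replicates 3 and 4. The main peak was 528 bp wide in P300KO replicate 2, 551 bp in WT replicate 1 and 939 bp in TET2KO replicate 4. In P300KO replicate 1 a single peak of 1472 bp took in 4 summits, 2 of them in the proximal group.

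Neither loss of p300 nor loss of Tet2 moved the rank of the upstream element by more than the spread between libraries. The mean percentile was 94.6 ± 0.843 (SD, n = 4) in WT and 94.8 ± 1.01 in P300KO, against 94.5 ± 0.979 in TET2KO and 94.7 ± 0.491 in P300KO_TET2KO. The differences were 0.248 for P300KO against WT, 0.270 for P300KO_TET2KO against TET2KO, -0.120 for TET2KO against WT and -0.0985 for P300KO_TET2KO against P300KO. The two-sided exact permutation p was 0.714, 0.714, 0.886 and 0.714 in that order, and 0.886 for each after Benjamini-Hochberg adjustment over the 4 contrasts. With 4 libraries a group the smallest p that 70 regroupings allow is 0.0286, and after adjustment a complete separation in 1 contrast alone gives 0.114. The adjusted threshold could be passed only if at least 3 of the 4 contrasts separated completely. Over all 16 libraries, p300 loss gave a difference of 0.259 percentile points (exact permutation p = 0.531) and Tet2 loss one of -0.109 (exact permutation p = 0.762), both 0.762 after adjustment over 6 tests. In replicates 1 and 2 the p300 difference was 0.921, and in replicates 3 and 4 it was -0.403. Ranked by fold enrichment instead of −log10 p, the sign of the p300 difference turned, to -3.63 (exact permutation p = 0.0525, adjusted p = 0.157). In the same ranking Tet2 loss gave -5.48 (exact permutation p = 0.0139, adjusted p = 0.0833) and P300KO_TET2KO against P300KO -8.00 (exact permutation adjusted p = 0.457), so no call changed.

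**Figure D2:**
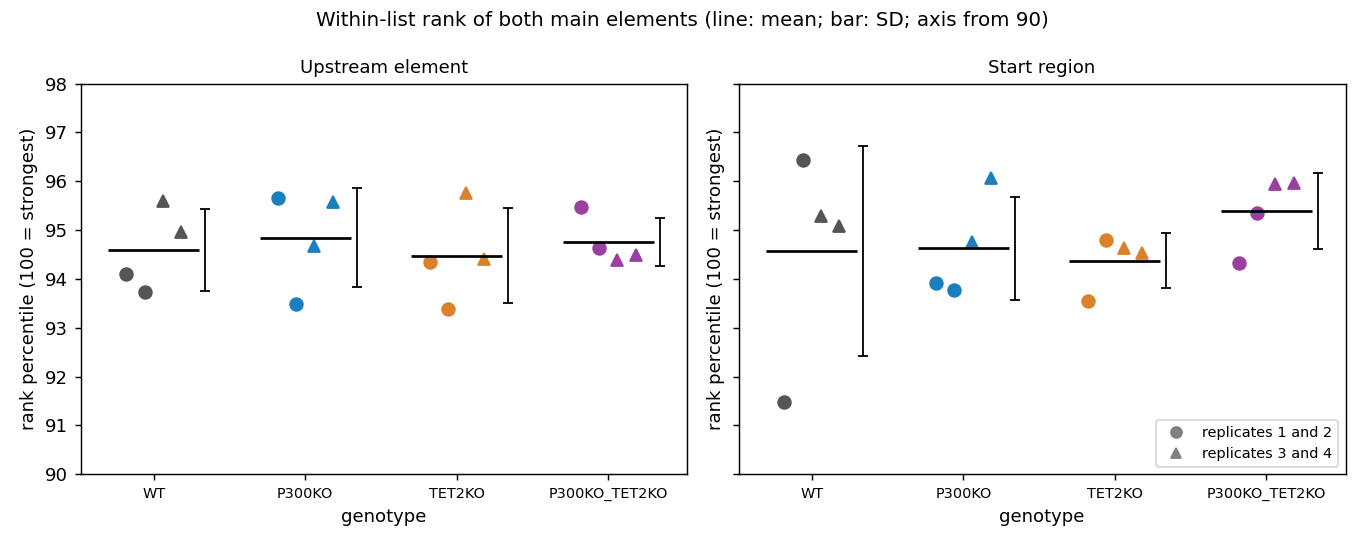
Rank percentile (vertical axis from 90 to 98, 100 = strongest peak) of the upstream element and of the start region in 4 libraries of each genotype (points, with circles for replicates 1 and 2), with the mean as a line and the SD as a bar. The genotypes overlap in both panels, and the lowest point is the start region in WT replicate 1, at 91.5.

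The start region stood as high as the upstream element. No merged region covered the Spi1-201 start itself. The nearest, chr2:91096270-91097572, began 174 bp downstream of it, had its median summit at 0.63 kb and covered the start of Spi1-203, 684 bp downstream of the principal start. Its rank percentiles were 91.5, 96.4, 95.3 and 95.1 in WT, with the widest spread of any genotype. They were 93.9, 93.8, 94.8 and 96.1 in P300KO, and 93.5, 94.8, 94.6 and 94.5 in TET2KO. In P300KO_TET2KO they were 94.3, 95.3, 96.0 and 96.0. Its median, 94.8, was above that of 58.0% of the 11241 regions at protein-coding starts present in all libraries. The median of the upstream element was above that of 56.7% of the same start regions. The upstream element ranked above the start region in 6 of 16 libraries.

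Among the 4 genotype contrasts ranked by −log10 p, the start region gave its largest difference between P300KO_TET2KO, 95.4 ± 0.774 (SD, n = 4), and TET2KO, 94.4 ± 0.569, which was 1.02 points (exact permutation p = 0.114, adjusted p = 0.457). Between libraries of the same replicate number it was 0.778, 0.536, 1.32 and 1.44, higher in P300KO_TET2KO in 4 of 4 pairs. The numbers were not shown to match libraries across genotypes, so these pairs rest on the numbering alone. TET2KO replicate 2, at 94.8, lay above P300KO_TET2KO replicate 1, at 94.3. With the replicate number as a block the exact permutation p was 0.125, the smallest that 4 pairs allow, and the adjusted p 0.5. Ranked by fold enrichment the same contrast turned to -2.14 (exact permutation adjusted p = 0.714). The difference between P300KO_TET2KO and P300KO was 0.764 (exact permutation p = 0.314, adjusted p = 0.629). P300KO differed from WT by 0.0599 (exact permutation p = 1, adjusted p = 1) and TET2KO from WT by -0.195 (exact permutation p = 0.8286, adjusted p = 1). Over all libraries p300 loss gave 0.539 (exact permutation p = 0.420) and Tet2 loss 0.285 (exact permutation p = 0.691), both 0.762 after adjustment. None passed the threshold, and ranked by fold enrichment the signs turned, to -1.66 for p300 loss and -2.73 for Tet2 loss (exact permutation adjusted p = 0.302 and 0.176).

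The number of locus regions with a peak was 8, 11, 12 and 12 in WT and 10, 10, 13 and 13 in P300KO. It was 9, 12, 15 and 12 in TET2KO and 11, 15, 14 and 13 in P300KO_TET2KO. The means were 10.75 ± 1.89 (SD, n = 4), 11.5 ± 1.73, 12 ± 2.45 and 13.25 ± 1.71, and every genotype overlapped every other. The difference was 0.75 regions for P300KO against WT (exact permutation p = 0.743, adjusted p = 0.743) and 1.25 for P300KO_TET2KO against TET2KO (exact permutation p = 0.543, adjusted p = 0.724). It was 1.25 for TET2KO against WT (exact permutation p = 0.486, adjusted p = 0.724) and 1.75 for P300KO_TET2KO against P300KO (exact permutation p = 0.229, adjusted p = 0.724). Over all libraries p300 loss gave 1.0 more region (exact permutation p = 0.293, adjusted p = 0.762) and Tet2 loss 1.5 more (exact permutation p = 0.0972, adjusted p = 0.583). These sizes moved with the processing while none passed: in the strongest 50000 peaks of each list Tet2 loss gave 0.5 and TET2KO against WT 0.25, and with 50% of a region to be covered P300KO against WT gave 1.75. Tet2 loss gave 2 both with −log10 q of at least 2 and with that coverage (exact permutation p = 0.0278 and 0.0340, adjusted p = 0.167 and 0.204). With the replicate number as a block, the difference of 1.5 for Tet2 loss had an exact permutation p of 0.03125 (adjusted p = 0.1875).

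**Figure D3:**
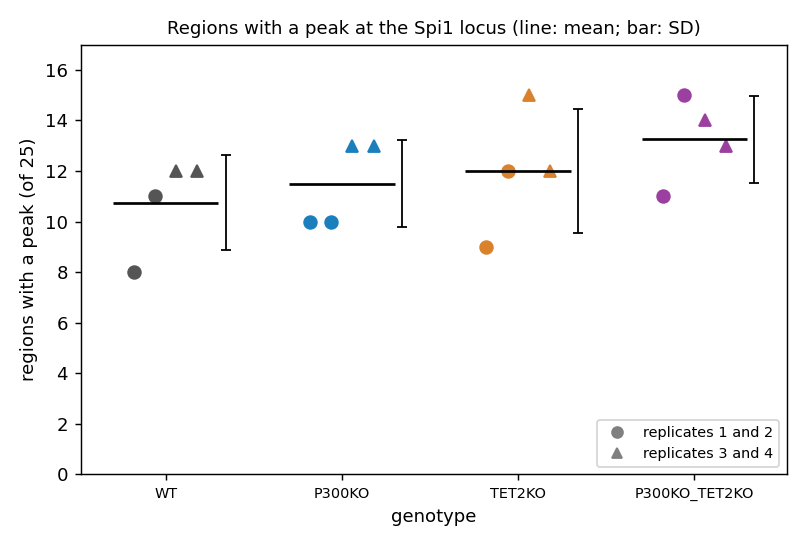
Number of the 25 locus regions with a peak in each library, by genotype (points, with circles for replicates 1 and 2 and triangles for 3 and 4), with the mean as a line and the SD as a bar. The libraries run from 8 to 15 regions and the genotypes overlap.

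The mean number of locus regions was 13 in replicates 3 and 4 and 10.75 in replicates 1 and 2 (difference 2.25, exact permutation p = 0.0216 within genotype, adjusted p = 0.0648 over 3 measures). Without WT replicate 2 the difference was 2.62 with an adjusted p of 0.0231, and without P300KO_TET2KO replicate 2 it was 2.75 with an adjusted p of 0.00926, by the same exact permutation test. The other leave-outs did not pass, as without P300KO_TET2KO replicate 1 (1.75, exact permutation adjusted p = 0.125) or without WT replicate 3 (2.25, adjusted p = 0.1204). The difference passed under each other way of counting regions: with peaks of −log10 q of at least 2 it was 3.5 (exact permutation adjusted p = 0.0185), with 50% of a region covered 3 (adjusted p = 0.0278) and with the window from the gene record 4.12 (adjusted p = 0.0139). The lists of replicates 3 and 4 were also longer. In the strongest 50000 peaks of each list the difference was 2 (exact permutation adjusted p = 0.00926). That makes the lengths equal but not the depth, which was unknown for each library, and the cause was not tested. For the upstream element the difference between the pairs was 0.630 points (exact permutation p = 0.154, adjusted p = 0.154), but ranked by fold enrichment the same differences were -14.0 points for the element and -9.84 points for the start region (exact permutation adjusted p = 0.00463 for both). For the start region it was 1.08 points (exact permutation p = 0.0694, adjusted p = 0.104), and without WT replicate 2 it was 1.70 with an adjusted p of 0.0139 by the exact permutation test. Without WT replicate 1 it was 0.464 (exact permutation adjusted p = 0.293).

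No region of the locus was gained or lost as a whole with genotype. In each contrast, 0 of 25 regions were present throughout the 4 libraries of one genotype and absent throughout those of the other. Over all merged regions that pattern held for 0.0726% between P300KO_TET2KO and TET2KO, 0.0236% between P300KO and WT, 0.0213% between TET2KO and WT and 0.0959% between P300KO_TET2KO and P300KO, shares too small to be weighed against a count in 25 regions. Ranks that did not overlap between P300KO_TET2KO and TET2KO were found for 0 of 8 locus regions with a peak in all 8 libraries, against 2.32% of all such regions, and between TET2KO and WT for 0 of 6, against 1.77%. There was 1 of 6 between P300KO and WT, against 2.8% of all such regions, and 1 of 8 between P300KO_TET2KO and P300KO, against 2.62%. Both were the region 17.38 kb upstream, called the far upstream region here.

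The far upstream region, with its median summit 17.38 kb upstream, was intergenic and had a peak in every library. Its rank percentiles were 69.6, 68.6, 63.7 and 66.6 in WT. In P300KO they were 52.2, 62.5, 60.2 and 52.6, all below WT. In TET2KO they were 78.4, 75.6, 54.9 and 79.8, where replicate 3 fell among the P300KO values. In P300KO_TET2KO they were 74.4, 67.1, 76.2 and 71.5, all above P300KO. The mean was 67.2 ± 2.61 (SD, n = 4) in WT and 56.9 ± 5.25 in P300KO, against 72.2 ± 11.6 in TET2KO and 72.3 ± 3.96 in P300KO_TET2KO. P300KO was thus 10.3 points lower than WT and P300KO_TET2KO 15.5 points higher than P300KO, while P300KO_TET2KO differed from TET2KO by 0.140 points. That last value rested on TET2KO replicate 3, without which the difference was -5.62, and ranked by fold enrichment it was -7.12. No test was made, since the region was singled out after its values were seen and P300KO enters both differences. Ranked by fold enrichment instead of −log10 p, P300KO ran from 17.5 to 40.5 and WT from 30.2 to 49.2, and P300KO_TET2KO from 30.5 to 45.5, so neither separation was complete. With peaks of −log10 q of at least 2 alone, P300KO ran from 40.6 to 58.5 and WT from 32.6 to 64.8, whereas P300KO_TET2KO, from 64.8 to 75.6, again lay above P300KO. By place from the top of the list, not scaled to its length, both pairs of genotypes overlapped.

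**Figure D4:**
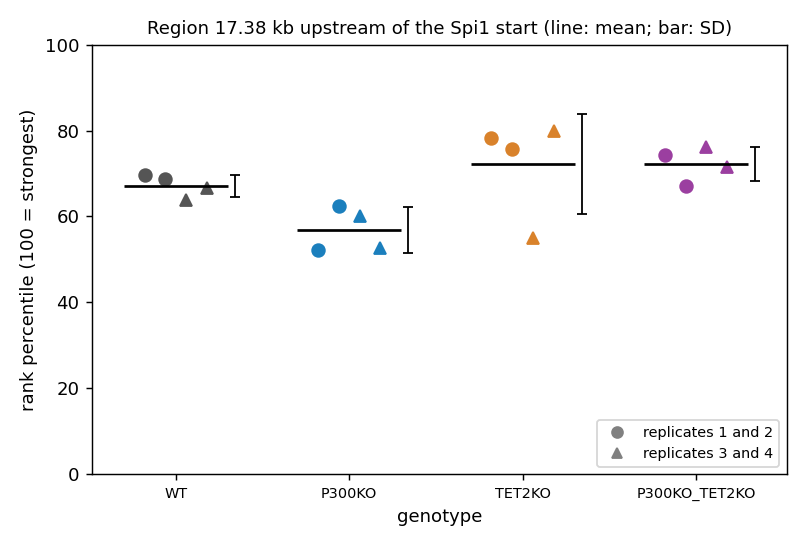
Rank percentile (0 to 100, 100 = strongest peak) of the region 17.38 kb upstream of the Spi1 start in 4 libraries of each genotype (points, with circles for replicates 1 and 2), with the mean as a line and the SD as a bar. The P300KO libraries, 52.2 to 62.5, sit below the WT libraries, 63.7 to 69.6, and the TET2KO libraries spread from 54.9 to 79.8.

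The highest ranks in the window belonged to a neighbouring promoter. The region with its median summit 25.5 kb upstream, chr2:91069787-91070896, covered the start of Slc39a13, a zinc transporter gene on the minus strand, which lies 25.7 kb upstream of the Spi1 start. It ranked between 98.6 and 99.8 in the 16 libraries, with means from 99.3 in P300KO to 99.6 in TET2KO.

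The other regions present in at least 12 libraries lay in or at the end of Spi1. The region 11.4 kb upstream, chr2:91084533-91084841 in an intron of Spi1-204, had a peak in 15 libraries, all but WT replicate 1, at 46.8 to 76.3. The upstream intron region, chr2:91086360-91086701, also had a peak in all but WT replicate 1, and its ranks were split by replicate pair. It stood at 34.6 in WT replicate 2 and at 81.0 and 81.6 in WT replicates 3 and 4. In P300KO it stood at 54.6, 44.1, 81.2 and 82.2, and in TET2KO at 44.6, 57.3, 86.2 and 83.2. In P300KO_TET2KO it stood at 64.0, 60.3, 79.6 and 82.0. Every value of replicates 3 and 4, from 79.6 up, lay above every value of replicates 1 and 2, at most 64.0, in each genotype. The region 5.48 kb downstream of the start, chr2:91101429-91101718 in a Spi1 intron, had a peak in every library at 73.9 to 88.3, with genotype means from 80.9 ± 5.79 (SD, n = 4) in P300KO to 83.7 ± 4.51 in TET2KO.

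The region 19.1 kb downstream, chr2:91114794-91115641, overlapped the last exon of Spi1 and also had a peak in every library. It stood at 53.6, 43.5, 73.3 and 76.8 in WT and at 50.1, 12.9, 76.2 and 75.3 in P300KO. In TET2KO it stood at 42.1, 38.0, 72.4 and 71.6, and in P300KO_TET2KO at 49.6, 54.9, 69.5 and 70.7. The lowest value of replicates 3 and 4, 69.5, was above the highest of replicates 1 and 2, 54.9, in whatever genotype. Among the 6 locus regions with a peak in 16 of 16 libraries it was the only one with no overlap between the pairs, and 19.7% of all such regions were higher in replicates 3 and 4 without overlap, against 0.201% that were lower (0 of 6 at the locus). The upstream intron region was not in that count, since WT replicate 1 had no peak there. A peak in all 8 libraries of one pair and none of the other was found for 0 of 25 regions at the locus and for 0.914% of all regions.

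**Figure D5:**
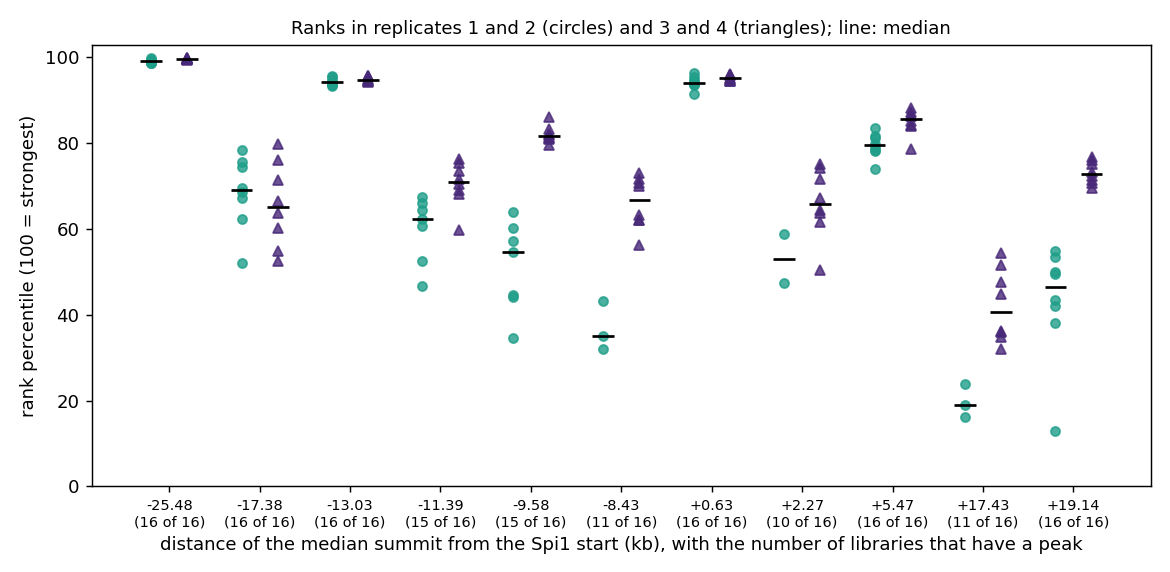
Rank percentile (0 to 100, 100 = strongest peak) of the 11 locus regions with a peak in at least 10 libraries, by distance of the summit from the Spi1 start, with circles for replicates 1 and 2, triangles for replicates 3 and 4 and lines for medians. At -9.58 kb the medians are 54.6 and 81.8 and at +19.14 kb 46.5 and 72.8, whereas at -13.03 kb they are 94.2 and 94.8.

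Of the 8 regions with a peak in 2 to 11 libraries, 6 had more peaks in replicates 3 and 4 and 2 had more in replicates 1 and 2. Over all 87797 merged regions in 2 to 11 libraries, 82.3% had more in replicates 3 and 4 and 9.21% more in replicates 1 and 2, so the lean at the locus was near that of the whole series. The region 8.43 kb upstream had a peak in 3 of 8 libraries of replicates 1 and 2, at a median of 35.0, and in 8 of 8 of replicates 3 and 4, at 66.7. By genotype it had a peak in 2 libraries of WT and in 3 of each other genotype. The region 2.28 kb downstream had one in 2 and in 8 libraries, and the region 17.43 kb downstream in 3 and in 8. A region 14.8 kb upstream, beyond the upstream element, had a peak in 1 and in 6 libraries and a region 14.5 kb downstream in 0 and in 5. Each of these 5 regions had a peak in at least 1 library of every genotype, and at most in 4, those of P300KO_TET2KO at 17.43 kb downstream. In the other direction, a region 6.85 kb upstream had a peak in 4 libraries of replicates 1 and 2 and in none of replicates 3 and 4. Beyond the gene end no region had a peak in more than 2 libraries. Apart from 1 intergenic region, those lay in Mybpc3, which encodes a protein of the heart sarcomere, and the strongest reached 62.0 in WT replicate 1 and 16.9 in P300KO_TET2KO replicate 1.

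Most listed genes of the PU.1 circuit had a start peak in all 16 libraries, as did 57.4% of all protein-coding genes by the same rule, and nothing particular to the lists is read from these counts. A region was counted where it covered the start of the gene record or lay within 1 kb of it. Of 8 genes whose products act on the upstream element, 7 had a start peak in 16 of 16 libraries, among them Runx1 at a median percentile of 89.2, its partner Cbfb at 97.0, the granulocyte factor Cebpa at 96.7 and the repressor Gfi1 at 83.9. Fli1, another Ets factor, had one in 11 libraries. Of 5 partners or opponents of PU.1, 4 had a peak in 16 libraries, including Irf8 at 95.0 and Gata2 at 78.8, and Gata1, which opposes PU.1 in erythroid cells, had none. Of 8 target genes of PU.1, 6 had one in 16 libraries, including Flt3 at 97.6 and the integrin gene Itgam at 80.3, while Il7r had one in 14 and Csf1r, the macrophage growth factor receptor gene, in 1. For Fli1 and Csf1r the start of the gene record may not be the main start, so a low count there does not describe the main promoter.

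Among these 3 lists, ranks that did not overlap between genotypes were found at 2 starts, which are named after their values were seen. Runx1 ran from 83.9 to 88.5 in P300KO and from 88.8 to 90.7 in WT, 1 of 7 genes compared in its list. Gfi1 ran from 79.5 to 83.7 in P300KO_TET2KO and from 86.5 to 88.3 in TET2KO, also 1 of 7. Against the backgrounds of 2.8% and 2.32% above, a single gene in a list of this size is no result about the list. The other 2 lists had 0 in all 4 contrasts, and the first had 0 in TET2KO against WT and in P300KO_TET2KO against P300KO.

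The labelled cell type was checked by the same start peaks. Of 8 stem and progenitor markers, 6 had one in 16 of 16 libraries, with Kit at a median of 96.3 and Meis1 at 93.2. Ly6a had one in 15 libraries, and Mecom, whose gene record may likewise not begin at its main start, in 1. Of the B cell markers, Pax5 had one in 10 libraries and Cd79a in 3. Of 3 T cell markers Bcl11b had one in 16, Cd3g in 4 and Cd3e in 1. Of 3 mature myeloid markers Itgam had one in 16, S100a8 in 13 and Ly6g in 0, and of the erythroid markers Klf1 had one in 16 and Hba-a1 in 5. Their part in the results at Spi1 was not tested.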

How the data were processed

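The 16 deposited peak lists were used, 1 per library, with 4 libraries per genotype and each library pooled from 2 mice. Per the labels and the study's methods, the authors trimmed reads with cutadapt 1.9.1, aligned them to mm10 with Bowtie2 2.2.6, removed duplicates, shifted reads for the transposase and called peaks per library with MACS2 2.1.0. The deposited columns used were the fold enrichment (a ratio over background), the −log10 p and −log10 q values and the summit offset, with no read counts, so the depth of each library was unknown and list length was used in its place. The study's methods name only a minimum number of reads aimed at per sample. Lists kept peaks down to a −log10 p of 2.00.

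Here, summits of an interval were reduced to the one with the highest −log10 p, and intervals of all libraries were merged at 1 bp. The rank percentile, the distances and the string search followed with Python 3.11.15, numpy 2.4.6, pandas 2.3.3 and pysam 0.24.0. Steps were tested on simulated lists. Each contrast used a two-sided exact permutation test over 70 regroupings. The effects of p300 and Tet2 loss over all libraries were permuted within the other gene and the replicate pair (1296 arrangements), with a threshold of 0.05 on adjusted p. Each library was a pool of 2 mice. The 70 regroupings did not hold the replicate pair fixed, so the spread they measure includes the difference between the pairs.

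The members, gene lists and strings were chosen with earlier results of these data known. Regions in at least 12 of 16 libraries were described singly and the others by counts. The upstream element was the region 13 to 15 kb upstream with a peak in most libraries. The Spi1 start was read as that of the principal transcript because the gene record begins in the upstream element, a choice made after seeing the files, and the nearest region served as the start region because none overlapped that start. Gene lists used gene record starts. Some marker genes and 1 sequence are not reported here. As alternatives, the lists were limited to peaks of −log10 q 2 or more or to the 50000 strongest, a region had to be covered to 50%, and ranks were taken by fold enrichment or minus log2 of the place from the top. The replicate block, each library left out and, chosen after seeing the data, the window from the gene record were tried too.

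Over the ranks of regions present in all libraries, centred on genotype means, same-numbered libraries correlated with r of 0.136 to 0.566 for every pair, as did other libraries of the same replicate pair (0.190 to 0.564), against -0.497 to -0.188 across pairs. The rule fixed for pairing by number, r over 0.1, was met by same-numbered libraries. Other libraries of the same replicate pair met it too, so it cannot show that the numbers match libraries across genotypes. Of 16 libraries, 7 had their best match in their own number. At most 0.755% of the intervals of 2 lists were identical.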

Additional observations from a re-analysis of the deposited data

How the results depend on the processing

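A block by replicate number cannot change a difference here, since every genotype has a library of every number. The differences were thus again 0.75 regions for p300 loss with Tet2 present and 1.25 with Tet2 absent. For Tet2 loss they were 1.25 and 1.75 with p300 present and absent. No call changed for any of the 3 measures, and none of the 4 contrasts could pass (smallest possible p 0.125). Over all libraries, with 256 arrangements, Tet2 loss gave an exact permutation p of 0.03125 for the number of regions (adjusted p = 0.1875). No genotype difference passed the threshold under any alternative, which a contrast of 4 against 4 libraries could hardly do after adjustment. The differences between replicates 3 and 4 and replicates 1 and 2 passed for the number of regions at a −log10 q of at least 2 (3.5), in the strongest 50000 peaks (2), at 50% coverage (3) and with the window from the gene record (4.12), and at a −log10 q of at least 2 for the upstream element (2.67) and the start region (3.37).

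Signs turned as follows, in percentile points. With −log10 q of at least 2, the upstream element gave 1.84 for TET2KO against WT, 0.609 for P300KO_TET2KO against P300KO and 1.23 for Tet2 loss, and the start region 2.202 for TET2KO against WT. Ranked by fold enrichment, the upstream element gave -6.14 for P300KO_TET2KO against TET2KO, -1.11 for P300KO against WT, -3.63 for p300 loss and -14.0 between the replicate pairs, while Tet2 loss kept its sign at -5.48 (exact permutation adjusted p = 0.0833) and P300KO_TET2KO against P300KO at -8.00. The difference between the pairs passed the threshold (exact permutation adjusted p = 0.00463). The start region then gave -2.14, -1.18 and, for P300KO_TET2KO against P300KO, -3.21, with -1.66 for p300 loss, -2.73 for Tet2 loss and -9.84 between the pairs (exact permutation adjusted p = 0.00463). On minus log2 of the place from the top, in log2 units where a higher value is nearer the top, the upstream element gave 0.0397 for TET2KO against WT and -0.296 between the pairs (exact permutation adjusted p = 0.0440), and the start region -0.190 between the pairs. The cause was not tested.

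Leaving out 1 library in turn, the upstream element ran from -0.0392 to 0.699 for P300KO against WT, -0.549 to 0.170 for P300KO_TET2KO against P300KO, -0.0965 to 0.698 for P300KO_TET2KO against TET2KO, -0.548 to 0.246 for TET2KO against WT, -0.379 to 0.160 for Tet2 loss, -0.0107 to 0.528 for p300 loss and 0.360 to 0.899 between the pairs. The start region ran from -0.971 to 0.680 for P300KO against WT, -1.23 to 0.425 for TET2KO against WT, -0.334 to 0.904 for Tet2 loss, -0.0795 to 1.16 for p300 loss, 0.479 to 1.24 for P300KO_TET2KO against P300KO and 0.464 to 1.70 between the pairs. The number of regions ran from -0.167 to 1.25 for P300KO against WT, 0.25 to 2.25 both for P300KO_TET2KO against TET2KO and for TET2KO against WT, 0.5 to 1.5 for p300 loss and 1.75 to 2.75 between the pairs. For Tet2 loss it ran from 1 to 2, and for P300KO_TET2KO against P300KO from 1.17 to 2.5. At the start region P300KO_TET2KO against TET2KO ran from 0.741 to 1.38. Over the ways of counting regions (−log10 q, strongest peaks, coverage, gene record), the genotype differences ran from 0.5 to 1.75 for P300KO against WT, 1 to 2 for P300KO_TET2KO against TET2KO, 0.25 to 2 for TET2KO against WT, 0.75 to 2 for P300KO_TET2KO against P300KO, 0.75 to 1.75 for p300 loss and 0.5 to 2 for Tet2 loss. With no read counts, depth limits what an absent peak can show.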

Other observations

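Among 464 distal regions present in all libraries whose median percentile was within 1 of that of the upstream element, the ranks most like its own over the 16 libraries, after centring on the means of each replicate pair, were at regions whose nearest protein-coding starts were those of Cnih3 (Pearson r = 0.68, 19.9 kb away), Adipor2 (r = 0.68, 39.9 kb), Zfp185 (r = 0.67, 20.9 kb), Hlf (r = 0.66, 27.2 kb) and Ppp6c (r = 0.66, 147 kb). The median r over the 464 was 0.13. These are descriptions over libraries that share their list lengths, and the 5 were picked as the highest, so they carry no test.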
